A study of Danio rerio with 2 samples.

Results

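Regions of open chromatin that lay inside a gene, close to a transcription start but not at it, were compared between hearts of *heart of stone* (*hos*) mutant zebrafish and hearts of their siblings. The regions were those that held no CpG island, were annotated as lying in at least 1 gene, and had their nearest listed gene start more than 1000 and at most 10000 bp away. These criteria chose 4246 of the 41473 regions (10.2%), and no signal value entered the choice. The assay was ATAC-seq, in which a transposase inserts sequencing adapters into accessible DNA, and the signal of a region is the depth of reads over it. One library came from hearts of mutants (genotype labelled mut) and 1 from hearts of siblings (labelled wt), all at 96 h post fertilization and all from a line that also carried the *myl7*:GFP transgene, which labels cardiomyocytes. The protocol names 60 hearts, dissected, flash frozen and processed by a commercial service, without saying how they were divided. The labels give heart as the tissue and cardiomyocytes as the cell type, and the series title connects the *hos* line to Smarce1, a subunit of the SWI/SNF remodeling complex, and to Jak/Stat3 signaling.

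Open chromatin within the first kilobases of a gene often marks enhancers in early introns, downstream parts of a promoter, or an alternative start. SWI/SNF complexes use ATP to slide or evict nucleosomes, and in vertebrate cells they act at enhancers as well as at promoters. Whether the regions described here lay in an exon or an intron was not analysed here, since no annotation of the danRer11 build beyond the deposited gene distances was used.

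With a single library of either genotype no difference could be checked in replicates or tested, so each difference given here is one between the 2 libraries. Intervals on shares treat regions as independent, and intervals on a fold are exact binomial intervals on estimated tags that cover counting error only. Fewer cells of a type and less open chromatin per cell cannot be told apart in whole hearts. Of 10 cardiomyocyte marker genes 8 were listed by symbol in the files, *vmhc* and *actc1a* being the others, and 6 of the 8 had a region within 1000 bp of the start, with a summed average signal of 276 in siblings and 411 in *hos*, while *myh6* and *tnnc1a* had none. Markers of other tissues were also open: of the markers listed by symbol, such a region was found for 5 of 6 neural (343 and 393), 4 of 6 epidermal and gut (214 and 200), 5 of 9 endocardial (209 and 289), 4 of 6 epicardial (166 and 126), 2 of 3 skeletal muscle (56.6 and 14.6) and 1 of 4 blood markers (19.0 and 29.3). Not listed by symbol were 3 of 6 skeletal muscle, 3 of 7 blood and 1 of 10 endocardial markers. Whether these lacked a region or had another symbol was not analysed. Per single region, all regions within 1000 bp of a start and without a CpG island had a median average signal of 43.6 in siblings and 52.0 in *hos*. The marker values are sums over the genes counted, so their sizes cannot be compared with that median. The scaling between the libraries is not given in the sources used here, so the sums are not read as gains or losses of a cell type. The part of cell composition in the results was not tested.

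The in-gene regions were short and mostly weak. Their median length was 319 bp, against 359 bp over all regions, and together they covered 1474 kb. The median average signal was 32.8 in siblings and 34.1 in *hos*, and the median peak signal, the highest depth within a region, was 41.0 and 43.0. In what follows, a region is above the floor where the larger of its 2 average signals was at least 39.3, the median over all regions, and strong where it was at least 60.4, the 75th percentile. Above the floor lay 1903 of the 4246 (44.8%), between the 30.1% of in-gene regions more than 10 kb from a start and the 72.1% of promoter regions without a CpG island. Of regions outside genes, without a CpG island and over 1000 bp from a listed start, 45.7% were above it. By estimate, 46.0 tags fell on a median region in siblings and 47.9 in *hos*, and 80.6 and 89.1 above the floor, where the upper bound of a fold was typically 1.90 times its lower bound.

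Above the floor the in-gene regions had a median average signal of 46.7 in siblings and 50.3 in *hos* and a median peak signal of 64.0 and 69.0. The median log2 ratio of mutant over sibling, on the scale of average signal plus 1, was 0.19, with quartiles of -0.11 and 0.46, and that of the peak signal was 0.18. Over all 20737 regions above the floor the median was 0.25, so relative to it the in-gene regions were slightly lower. The ratio was above 0 in 1277 of the 1903 (67.1%), where 75.4% of all regions above the floor had such a ratio. The scaling between the libraries is not given in the sources used here, and it sets where 0 lies. Subtracting the median of all regions lowered each ratio by 0.15, and centring on a curve fitted through ratio against mean signal (lowess) brought the median of the in-gene regions to -0.02 and that of all regions above the floor to 0.02.

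Limits of 2-fold and 4-fold are set on the log2 ratio of signal plus 1, so a region can be just past 2-fold in its signals and not be counted. At least 2-fold higher in the mutant were 63 of the 1903 (3.31%, Wilson 95% interval 2.60 to 4.21), and 2.04% of all regions above the floor were called by that limit. At least 2-fold lower were 46 (2.42%, 1.82 to 3.21), where 1.13% of all regions were. Log2 ratios had a standard deviation of 0.49 here and of 0.41 over all regions. Such shares were not particular to these regions. Regions outside genes had 3.73% higher and 1.26% lower, in-gene regions over 10 kb from a start 1.87% and 2.85%, and promoter regions 1.64% and 0.171%. The standard deviations in these classes were 0.46, 0.51 and 0.34. The balance of the 63 higher and 46 lower regions depended on scaling: 38 were higher and 64 lower with median centring, and 46 higher and 57 lower with lowess centring. By peak signal 65 passed the limit in the higher and 38 in the lower direction, with 2.33% and 1.17% of all regions past it. Without the floor 182 and 255 of the 4246 passed it, 4.29% and 6.01%, where 3.32% and 4.83% of all 41473 regions did. Among the 63 regions that were higher, 55 held a called interval in the mutant only, and among the 46 that were lower 39 held one in the sibling only. Their signal was modest, with a median larger signal of 46.5 and 46.1, and only 12 and 5 of them were strong. Because the floor is on the larger signal, each of them that was not strong passed it only through the library where it was higher. The same held for strong ones such as those in *col8a2* (20.1 in siblings) and *cited4a* (9.67 in *hos*). In contrast, the strong regions in *unkl*, *mtmr8* and *ece2a* were above the floor in both libraries. The same floor applied to all regions and to the other classes, so these shares are descriptions only. With an interval in both libraries 8 higher and 7 lower regions were left. None was 4-fold higher and 2 were 4-fold lower.

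**Figure D1:**
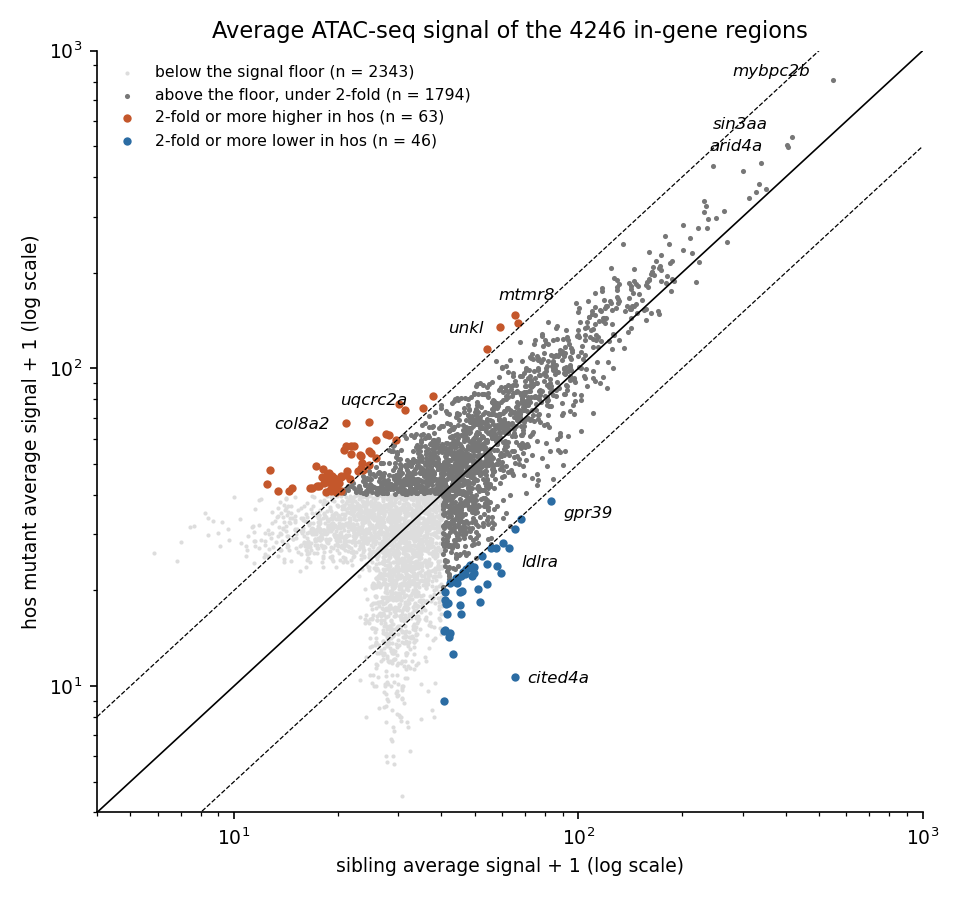
Average ATAC-seq signal plus 1 of the 4246 in-gene regions in the sibling library (x axis) and the *hos* mutant library (y axis), both on log scales, 1 point per region. Pale points lie below the signal floor and dark grey points above it. Orange and blue points are the 63 and 46 regions past 2-fold (dashed lines) in either direction, most of which lie close to the floor. The region in *cited4a* has the lowest ratio of those above the floor.

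The spread depended on signal in every class of region. In-gene regions between the floor and the strong limit had a median log2 ratio of 0.13 (1188 regions, 51 higher and 41 lower by 2-fold), those from there to the 90th percentile of all regions 0.24 (491 regions, 8 and 5), and those above it, at a signal of 101.9 or more, 0.31 (224 regions, 4 and 0). Promoter regions without a CpG island had medians of 0.24, 0.29 and 0.30 in the same bands, and in-gene regions over 10 kb from a start 0.07, 0.20 and 0.28. The classes thus differed most in the weakest band and little in the strongest. No test of a difference between classes exists with these 2 libraries.

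Both libraries held an interval in 2272 of the 4246 (53.5%, Wilson 95% interval 52.0 to 55.0), where 63.7% of all regions had one in both. The sibling alone held one in 1019 (24.0%), beside 18.9% of all regions, and the mutant alone in 955 (22.5%), beside 17.5%. Above the floor the share with an interval in both was 80.8% (79.0 to 82.5), beside 90.6% of all regions and 88.5% of in-gene regions more than 10 kb away. In regions outside genes it was 83.7%, and in promoter regions without a CpG island 94.2%. Among the in-gene regions near a start the share varied with distance from the nearest start. It was 77.6% at 1 to 2 kb, 75% at 2 to 3 kb and 74.2% at 3 to 5 kb, and then 86.0% at 5 to 7.5 kb and 90.2% at 7.5 to 10 kb.

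The strongest regions held by 1 library only were not empty in the other. A region 1959 bp from the start of *arid1ab*, which encodes a subunit of the SWI/SNF complex itself, had an interval in the sibling only, with average signals of 89.6 in siblings and 71.1 in *hos*. One 1281 bp from the start of *fosab*, an immediate early gene of the AP-1 family, had signals of 87.4 and 61.7. Of the mutant-only regions named by rank, one in *igf2bp1*, an mRNA-binding protein gene, had signals of 86.0 and 123, and one in *nfyc*, a subunit of the CCAAT-binding factor NF-Y, 69.3 and 98.2. The region in *ssuh2rs1*, 4362 bp from the start of *seph*, had 53.9 and 88.3. These 5 differed by less than 2-fold, as did the sibling-only region in *ccng2* (83.6 and 43.8), while the sibling-only region in *gpr39* (82.1 and 37.2) and the strongest mutant-only region, in *unkl* (58.3 and 134), were past 2-fold.

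Signal was lower further from the nearest start. At 1 to 2 kb 62.8% of 704 regions were above the floor, at 2 to 3 kb 58.1% of 468, at 3 to 5 kb 49.6% of 797, at 5 to 7.5 kb 37.0% of 1182 and at 7.5 to 10 kb 32.6% of 1095. The median log2 ratio was 0.24, 0.20, 0.19, 0.20 and 0.12 in these bands, with wide quartiles in each. Past 2-fold, 15 were higher and 5 lower in the first band and 9 and 4 in the second, and 13 and 14, 16 and 14, and 10 and 9 in the others. After lowess centring these counts were 8 and 6, 6 and 6, 10 and 19, 14 and 17, and 8 and 9, so the excess of higher regions near the start was not kept.

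**Figure D2:**
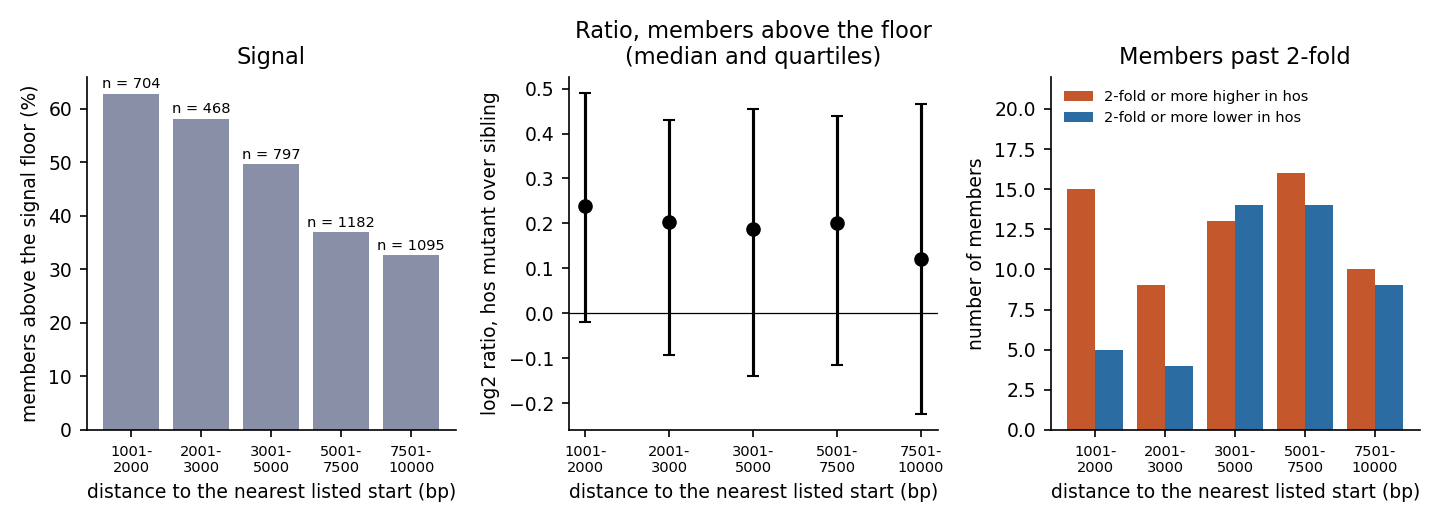
In-gene regions grouped by distance in bp to the nearest listed start: the share above the signal floor with the number of regions (left), the median log2 ratio of mutant over sibling with its quartiles for those above the floor (middle), and the number at least 2-fold higher or lower in the *hos* library (right). The share above the floor falls from 62.8% to 32.6%, and without centring lower calls are fewest in the 2 nearest bands.

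The nearest start was not always that of the gene that held the region. For 3153 of the 4246 (74.3%) it was, while 859 lay closer to a gene they were upstream of and 234 to a gene they were downstream of. The gene that held the region began more than 10 kb away in 873 (20.6%). Above the floor, regions nearest to their own gene's start had a median log2 ratio of 0.17, with 36 higher and 42 lower by 2-fold or more (2.53% and 2.95% of 1424). Regions upstream of another gene had 0.26, with 18 higher and 3 lower (4.89% and 0.815% of 368), and regions downstream of another gene 0.28, with 9 and 1 (8.11% and 0.901% of 111). All but 4 of the 46 lower regions therefore lay nearest to their own gene's start. After lowess centring the counts were 25 higher and 53 lower, 12 and 3, and 9 and 1 for these groups, and by peak signal 35 and 35, 19 and 3, and 11 and 0. This split was made after earlier results were known and was not tested.

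The distance rule itself favours long genes and positions early in them. For regions nearest to their own start, the median length of the gene, counted once per region, was 25787 bp. Over the 23107 genes listed in the files it was 13831 bp. Of the regions nearest to their own start, 84.1% lay nearer to the start of the gene than to its end, and the median position was 17.6% of the way along the gene. The median log2 ratio was 0.17 both in these and in the regions nearer to the end.

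The ratio of these regions was mostly below that of the promoter of the same gene. A promoter region, within 1000 bp of the start, existed for 2116 of the 3153 (67.1%), and for 895 regions in 819 genes both were above the floor. The in-gene regions had median signals of 48.3 in siblings and 50.3 in *hos*, and the promoters 68.7 and 84.4. Region by region the in-gene ratio was lower than the promoter ratio in 571 of 895 (63.8%), with a median difference of -0.17 on the log2 scale and quartiles of -0.52 and 0.16, or -0.14 after lowess centring. The promoters were stronger than the in-gene regions, and ratios increased with signal as given above. The part of signal in this difference was not tested. Across these regions, which share their libraries and in part their genes, the 2 ratios had a Pearson r of 0.11. Of the 895, 16 in-gene regions were higher and 29 lower by 2-fold or more, while 11 promoters were higher and 1 was lower, and in 1 gene region and promoter were both higher.

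**Figure D3:**
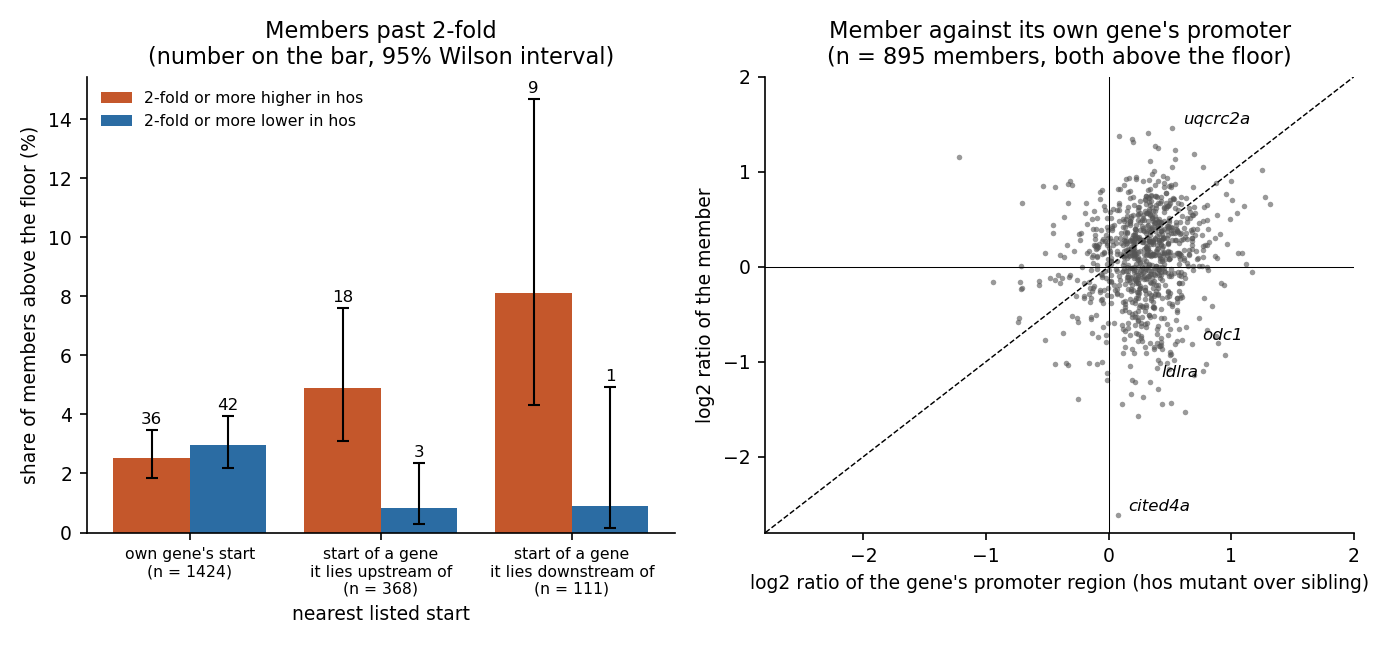
Left, share of in-gene regions above the floor that were at least 2-fold higher (orange) or lower (blue) in the *hos* library by which gene's start was nearest, with the number on each bar and 95% Wilson intervals; 42 of the 46 lower regions lie nearest to their own gene's start. Right, log2 ratio of mutant over sibling of 895 in-gene regions (y axis) against that of the promoter region of the same gene (x axis), 1 point per in-gene region, with the line of equal ratios dashed; 63.8% of the points lie below it.

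The lowest ratios among strong regions all lay nearest to their own gene's start, 12 of 12, as did 1424 of the 1903 above the floor. The strong limit of 60.4 is on the larger signal. All 12 reached it through the sibling library only, with at most 53.8 in *hos*, so the choice itself favours such gaps. The lowest was in *cited4a* (chr19:15851267-15851476, 4040 bp from the start), which encodes a CBP/p300-interacting transactivator, and in mice the related Cited4 takes part in exercise-induced heart growth. Its average signal was 64.3 in siblings and 9.67 in *hos* and its peak signal 76 and 12, a log2 ratio of -2.61 and a 6.65-fold lower signal (counting interval 3.29 to 15.3). The promoter region of *cited4a* had 202 and 213, so within this gene the difference was in the distal region. That distal region was 209 bp long, lay near the end of the gene, which is 4185 bp long, and held a called interval in the sibling only. By estimate it held 60.0 tags in siblings and 9.02 in *hos*.

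Next in order came *ldlra*, the low-density lipoprotein receptor (chr3:19301483-19301885), with average signals of 61.8 in siblings and 26.2 in *hos*. *gpr39*, a zinc-sensing G protein-coupled receptor, had 82.1 and 37.2, and *itgb6*, the β6 integrin that in mammals activates latent Tgf-β in epithelia, had 64.4 and 30.2. The kinase gene *stk35l* had 67.0 and 32.5. These 4 were 2.36-fold, 2.21-fold, 2.14-fold and 2.06-fold lower, and the lower bounds of their counting intervals were between 1.52 and 1.66.

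The other 7 were between 1.68-fold and 2.01-fold lower. *bambia*, whose product is a pseudoreceptor that dampens Bmp and Tgf-β signals, had 62.2 in siblings and 31.0 in *hos*. *ccng2*, a cyclin associated with exit from the cell cycle, had 83.6 and 43.8, and *odc1*, the rate-limiting enzyme of polyamine synthesis, 74.8 and 42.0. *nr2f1a*, a nuclear receptor needed for atrial identity in zebrafish, had 60.5 and 34.0. The iron storage gene *fth1a* had 89.4 and 48.6, *mknk2b*, a kinase of the translation factor eIF4E, 75.6 and 43, and *pmp22b*, a myelin and junction protein gene, 90.5 and 53.8. Of the 12, 11 had a promoter region, and the log2 ratios of those promoters ran from -0.09 to 0.68, with 8 above 0. An interval was called in both libraries in 4 of the 12.

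At the other end, 5 of the 12 highest strong regions lay nearest to a start other than that of the gene that held them. Above the floor 479 of the 1903 did. Of these 12, only the region in *mtmr8* reached the strong limit in siblings too, and the others reached it through the mutant library only. The highest was in *col8a2*, a chain of type VIII collagen (chr19:35499510-35499884), but 96510 bp from its start and 6983 bp from that of *ptp4a2b*, a phosphatase of the PRL family. Its average signal was 20.1 in siblings and 66.3 in *hos*, a log2 ratio of 1.67 and 3.30-fold (counting interval 2.21 to 4.95). One in *spidr*, a scaffold of homologous recombination, was 2794 bp from *cebpd*, a CCAAT/enhancer-binding factor, with 29.1 and 76.0. One in *mtmr8*, a myotubularin phosphatase, was 1472 bp from *asb12a* and had 64.5 and 147. The other 2 were in *lipt2*, a lipoyltransferase (27.2 and 60.8), and *srpk2*, a kinase of splicing factors (26.6 and 61.3).

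The other 7 had their own start nearest. *uqcrc2a*, a core subunit of respiratory complex III (chr3:58175221-58175733, 8208 bp from the start), had 23.7 in siblings and 66.9 in *hos*, 2.83-fold (2.06 to 3.94). *tpi1a*, the glycolytic triosephosphate isomerase, had 36.7 and 80.7, and *derl1*, a component of endoplasmic reticulum-associated degradation, 30.4 and 72.7. *unkl*, a zinc finger gene related to *unkempt*, had 58.3 and 134 at 1785 bp from its start. Regions were also in *ece2a*, an endothelin-converting enzyme (53.4 and 114), *ddah1*, which degrades an inhibitor of nitric oxide synthase (30.1 and 60.7), and *supt3h*, where the region also lay within the overlapping *runx2a* (35.9 and 69.9). Among the 12, 8 had an interval in both libraries. For 9 the gene that held the region had a promoter region, with log2 ratios from -0.17 to 0.70 and 7 above 0. These include *spidr*, *srpk2*, *mtmr8* and *lipt2*, whose in-gene regions lay nearer to another gene's start. After lowess centring 5 of the 12 highest and 9 of the 12 lowest were past the 2-fold limit on signal plus 1, against 10 and 5 without centring.

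**Figure D4:**
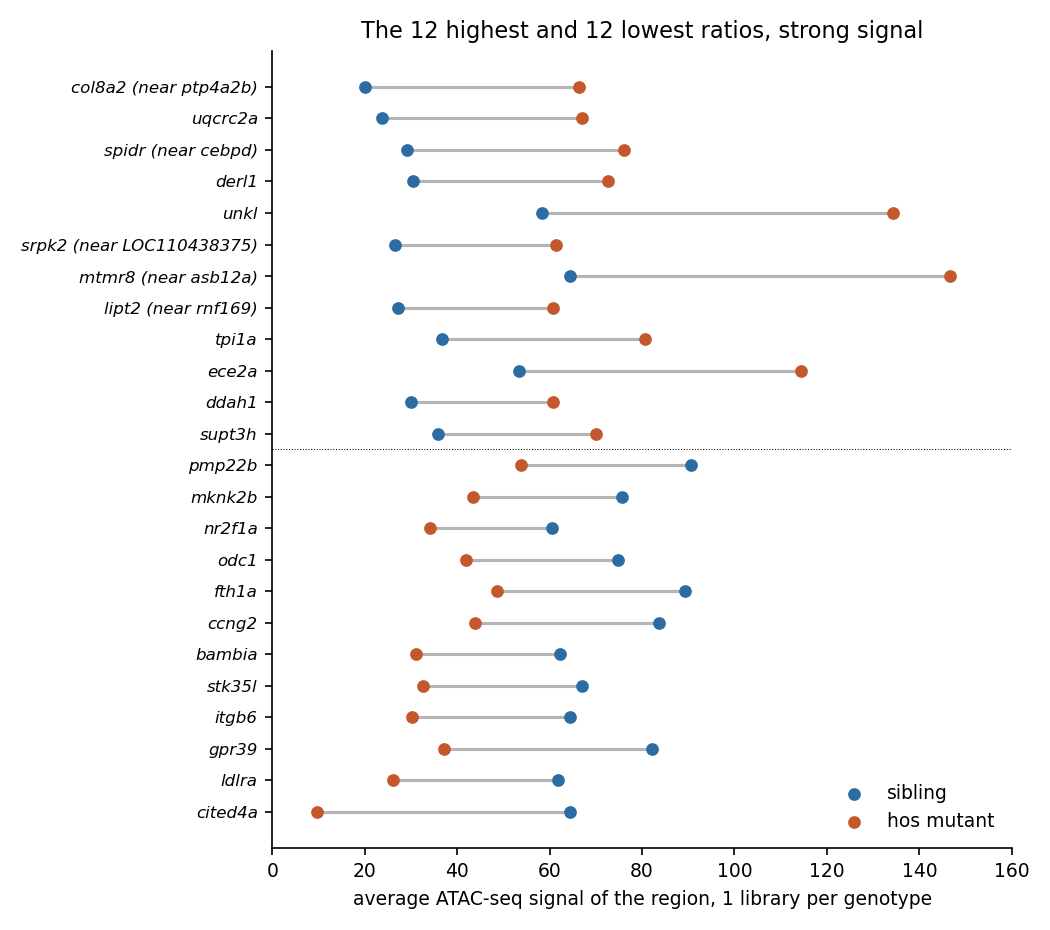
Average signal in the sibling (blue) and *hos* mutant (orange) libraries of the 12 strong in-gene regions with the highest ratios (upper rows) and the 12 with the lowest (lower rows), 1 library per genotype and no error bars. The gene that held the region is named, with the gene of the nearest start in brackets where it was another gene. The region in *cited4a* has the widest gap among the lower rows, at 64.3 and 9.67.

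The 8 strongest in-gene regions all had a higher signal in the mutant, by less than 2-fold, and after lowess centring 4 of the 8 had a ratio below 0. The strongest was in *mybpc2b*, a fast skeletal muscle myosin-binding protein C, although 33095 bp from its start, with average signals of 547 in siblings and 809 in *hos*. *sin3aa*, a scaffold of the Sin3 histone deacetylase complex, had 415 and 534, and *arid4a*, a partner of that complex that binds the retinoblastoma protein, 406 and 497. The repressor *zbtb7a* had 299 and 417, and *nr1d2a*, a Rev-erb repressor of the circadian clock, 350 and 366. *bahcc1b*, *tmem19* and *ppp1r10*, a regulatory subunit of protein phosphatase 1, had 327 and 357, 313 and 343, and 231 and 336. The log2 ratios of these 8 ran from 0.06 to 0.56, and 5 of them lay within 2 kb of the nearest start.

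Ratios of regions in the same gene spread almost as widely as those of all regions in such genes. The 4246 regions were held by 3607 genes, of which 3073 had 1, 451 had 2 and 83 had 3 or more. In the 192 genes with at least 2 regions above the floor, log2 ratios within a gene had a standard deviation of 0.46, against 0.48 over the 427 regions concerned, and in 108 of the genes (56.3%) all ratios had the same sign. Among named genes there were 207 pairs of such regions, 85 of them with opposite signs, and the median gap between the ratios was 0.51 in the 44 pairs under 1 kb apart and 0.42 in the 163 others. Since 67.1% of the 1903 in-gene regions above the floor had a ratio above 0, unrelated regions would often differ in sign too. The share of such unrelated pairs was not computed, and the sign depends on scaling.

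The widest gaps were chosen after the values were seen. In *unkl* the region 1785 bp from the start had 58.3 in siblings and 134 in *hos*, and 1 lying 4330 bp further along had 48.0 and 21.3. It was the only pair past 2-fold in opposite directions. In *cacnb4b*, an accessory subunit of voltage-gated calcium channels, 2 regions 254 bp apart had 40.2 and 17.2, and 97.7 and 160. In *akap7*, an anchoring protein for protein kinase A, 2 regions 538 bp apart had 24.6 and 44.8, and 43.3 and 20.8.

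Among genes with a full symbol, those with the most regions included *klc1b*, a kinesin light chain, and *reln*, an extracellular guidance protein, with 5 each. Those in *klc1b* lay 62313 to 257511 bp from its start and close to other genes: one 7832 bp from *slc30a10* had 16.3 in siblings and 48.4 in *hos*, and 2 lying 8336 and 8994 bp from *npas4l*, a transcription factor that specifies endothelium and blood in zebrafish, had 22.2 and 38.0, and 20.4 and 41.6. The other 2 were lower in the mutant, with 32.3 and 12.3 in one below the floor and 59.9 and 52.3 in the strongest of the 5. In *reln* 4 regions had log2 ratios from 0.33 to 0.80 and the one nearest its start, at 9252 bp, had 30.5 and 12.6. Of these 5, 2 were above the floor, with 38.2 and 59.0 and with 23.9 and 42.3. *mfsd2aa*, *aqp9a*, *tbc1d16* and *arid3c* had 4 regions each, all of them under 2-fold in either direction.

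Gene lists are described by their members above the floor, and are read against the median of 0.25 over all regions above the floor. The lists were drawn up with earlier results of these data known. Signals are those of single in-gene regions and not of whole genes. Some genes with a low region had a promoter ratio above 0, also after lowess centring, such as *irs2b* (0.80), *hlfb* (0.55) and *cldn7b* (0.39). Others did not, such as *ucp1* (-0.42) and *numb* (-0.02). Some regions named below lay nearer to another gene's start than to that of the gene that held them. Besides those so described, they were in *elnb* (5194 bp from *limk1b*), *dvl2* (7723 bp from *acadvl*), *smad9* (9327 bp from *rfxap*) and *smyd1a* (6645 bp from *fabp1a*). The same held for *ccnc* (2004 bp from *faxca*), *jam2a* (9037 bp from *atp5j*) and *acacb* (5659 bp from *LOC103911062*). Of the 20 lists, 17 had a median above 0 without centring, 12 after median centring and 10 after lowess centring, so the direction of a list close to 0 depends on scaling. Some medians also depended on the floor. Without it the median over all regions was 0.15. It was 0.09 in Bmp and Tgf-β, 0.04 in epicardial, smooth muscle and mesenchymal, -0.06 in mitochondrial and energy and -0.04 in Jak/Stat genes. Others changed little, such as Wnt (0.30), cell cycle (0.22) and SWI/SNF genes (-0.30).

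Jak/Stat genes, which the series title names, held 10 regions, 6 of them above the floor, with a median log2 ratio of 0.13 that turned to -0.10 after lowess centring and none past 2-fold. *socs3a*, the feedback inhibitor that Stat3 induces, had 47.7 in siblings and 80.2 in *hos* at 1453 bp from its start, 1.68-fold (counting interval 1.36 to 2.08). The kinase gene *pim1*, a known Stat target, had 2 regions, with 79.6 and 57.1, and 121 and 104, while both regions of *pim3* had ratios of 0.13. The strongest region, in *stat2* but 7189 bp from *apof*, had 263 and 312. Below the floor, *il20ra*, an interleukin receptor chain, had 30.0 and 9.

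SWI/SNF subunit genes held 7 regions, and 4 of the 5 above the floor had a ratio below 0, with a median of -0.30, or -0.45 after lowess centring. The regions in *arid1ab* (89.6 and 71.1), *smarcd3a* (81.0 and 64.4) and *dpf2* (47.7 and 38.7) were lower in the mutant by similar amounts, and *bicral* had 70.3 and 68.8. The region in *arid1aa*, 29569 bp from its start and 5486 bp from that of *pigv*, had 58.1 and 85.1. None reached 2-fold, and the counting intervals of *arid1ab* and *smarcd3a* included equal signal. *smarce1* itself held no such region. The promoter regions of *arid1ab*, *smarcd3a* and *arid1aa* had log2 ratios of 0.78, 0.35 and 0.73. After lowess centring these were 0.50, 0.14 and 0.47. In *arid1ab* and *smarcd3a* the in-gene region and the promoter thus differed in direction, so the lower ratios are not read as a loss over these genes. *bicral* had no promoter region, and that of *dpf2* is not given here.

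Genes of cardiac transcription factors held 26 regions, 13 above the floor, with a median of 0.24, or 0.04 after lowess centring, and none past the limit on signal plus 1. *tead1a*, a partner of Yap in muscle gene control, had 20.1 in siblings and 40.6 in *hos*, just past 2-fold in its signals, and *ppargc1a*, a coactivator of mitochondrial biogenesis, 77.2 and 125. The pair of *nr2f1* genes were at the low end, *nr2f1a* as above and *nr2f1b* with 41.3 and 30.6. Sarcomere genes had 11 of 32 above the floor and a median of 0.35, or 0.13 after lowess centring, with 9 ratios above 0. *smyd1a*, a methyltransferase of sarcomere assembly, had 21.7 and 39.8, and the Z-disc gene *pdlim5b* 27.9 and 44.9. At the low end were *csrp1a*, a LIM domain protein, with 53.3 and 32.3, and the actinin gene *actn1* with 41.2 and 35.9.

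Calcium handling and channel genes had 9 of 21 above the floor and a median of 0.01, or -0.18 after lowess centring. *cacnb4b* gave both ends of that list, and *cacna1c*, the pore of the L-type calcium channel, had 48.1 and 34.2, while *atp1b2a*, a subunit of the sodium pump, had 61.3 and 87.7. Cell cycle genes had 11 of 19 above the floor and a median of 0.22, or -0.04 after lowess centring, with 9 ratios above 0. *mki67*, a marker of proliferating cells, had 34.3 and 46.9, *ccnc* 25.7 and 41.7, and *ccng2* was lowest, followed by the phosphatase gene *cdc25d* (47.7 and 44.4).

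Among signaling pathways, Bmp and Tgf-β genes had 14 of 33 regions above the floor and a median of 0.48, or 0.23 after lowess centring, with 10 ratios above 0. *smad9*, a transducer of Bmp signals, had 22.3 in siblings and 40.9 in *hos*, and the receptor *bmpr1ab* 29.3 and 49.2, whereas the antagonist *bambia* was lowest and the co-repressor *skila* had 49.3 and 36.0. Wnt genes had 21 of 39 above the floor and a median of 0.38, or 0.21 after lowess centring, with 17 ratios above 0. The only one past 2-fold was in *fzd6*, with 19.4 and 44.6, where the deposited annotation places the region 461231 bp from the start of *fzd6* and 3040 bp from that of *wdtc1*. The planar polarity genes *celsr2* and *vangl2* had 30.7 and 47.0, and 72.0 and 68.5, and *dvl2*, a transducer of Wnt signals, 40.9 and 34.4.

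Notch genes had 12 of 19 above the floor and a median of 0.31, or 0.11 after lowess centring. The receptor *notch2* was 2.62-fold lower in the mutant (counting interval 1.81 to 3.92), with 50.1 in siblings and 19.1 in *hos* at 4482 bp from its start, and *numb*, an inhibitor of Notch, had 80.0 and 48.3. In contrast *nrarpa*, a feedback regulator of the pathway, had 43 and 71.6, and a region in *mib1*, the ligase that activates Notch ligands, 29.4 and 51.0, although that region was 1054 bp from *mir1-2*, a muscle microRNA gene. Hippo genes had 9 of 21 above the floor and a median of 0.33, or 0.15 after lowess centring. In-gene regions of its effectors were at opposite ends, *yap1* with 31.5 and 44.7 and *wwtr1*, which encodes Taz, with 48.7 and 26.9. The counting interval of *yap1* included equal signal. The promoter regions of both were higher in *hos*, with 70.5 and 86.3 in *yap1* and 36.5 and 49.0 in *wwtr1*. The kinase adaptor gene *sav1* had 56.0 and 35.2 in its in-gene region.

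Growth factor and receptor kinase genes had 14 of 33 above the floor and a median of -0.01, or -0.19 after lowess centring. *igf2r*, which clears Igf2 in mammals, had 44.3 in siblings and 18.8 in *hos*, 2.36-fold lower (1.44 to 4.16), and *irs2b*, an adaptor of insulin signaling, 62.5 and 39.0, while *fgfr3* had 45.8 and 79.4 and *fgfrl1a*, a receptor without a kinase domain, 46.4 and 62.5. Adhesion and guidance genes had 9 of 30 above the floor and a median of -0.12, or -0.38 after lowess centring. Its ends were *itgb6* and *nrp1a*, a co-receptor for Vegf and semaphorins with 51.6 and 81.8, and the paralogs *itgb1a* and *itgb1b* differed in direction, with 37.1 and 58.6, and 43.3 and 27.9.

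**Figure D5:**
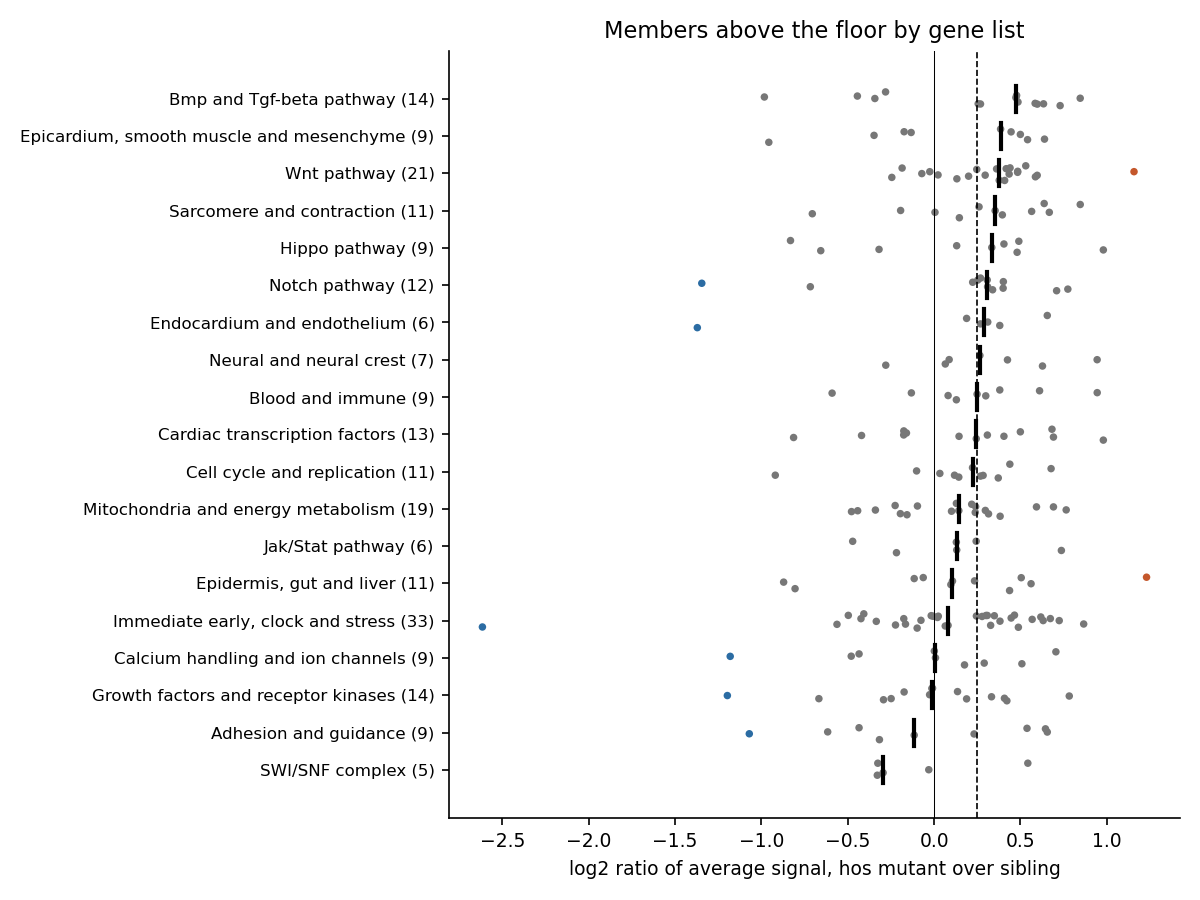
Log2 ratio of average signal, mutant over sibling, of the in-gene regions above the floor in 19 gene lists with at least 2 such regions (number in brackets), 1 point per region with vertical jitter. Short black bars are list medians, the dashed line is the median of 0.25 over all regions above the floor, and points past 2-fold are orange or blue. The lists overlap widely, and the SWI/SNF list has the lowest median at -0.30.

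Lists of other cell types had medians between 0.11 and 0.39 without centring, apart from skeletal muscle. Endocardial and endothelial genes had 6 of 18 regions above the floor and a median of 0.29, or 0.10 after lowess centring, with *pdcd10a*, a gene of the cerebral cavernous malformation pathway, 2.67-fold lower (53.3 in siblings and 20.0 in *hos*, counting interval 1.69 to 4.24). In the same list *gata2a* had 41.2 and 53.9, and *vegfaa*, a ligand of endothelial growth, 49.9 and 57.0. Epicardial, smooth muscle and mesenchymal genes had 9 of 24 above the floor and a median of 0.39, or 0.23 after lowess centring, from *aldh1a2*, a retinoic acid synthesis enzyme of the epicardium (41.1 and 20.7), and *zeb2a*, a repressor of epithelial genes (46.5 and 36.3), to *elnb* (61.5 and 96.4) and *col1a1a* (31.2 and 45.9). Neural genes had 7 of 17 above the floor (median 0.27, or 0.00 after lowess centring), from *rbfox2*, a splicing factor (79.9 and 65.6), and *tfap2a*, a neural crest factor (49.7 and 52.0), to the transcription factors *zic6* (25.4 and 39.8) and *ebf3a* (23.6 and 46.4).

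Epidermal, gut and liver genes had 11 of 24 above the floor (0.11, or -0.07 after lowess centring). The claudin paralogs were at opposite ends, *cldn7a* past 2-fold with 17.7 and 42.8 in a region 6564 bp from *si:dkey-112a7.4*, and *cldn7b* with 44.1 and 24.8. The liver and gut transcription factors *hnf1ba* and *hhex* had 46.3 and 24.9, and 30.9 and 46.1. Blood and immune genes had 9 of 23 above the floor (0.25, or -0.01 after lowess centring), with the platelet integrin *itga2b* at 29.8 and 46.0 in a region 3031 bp from *fam171a2a*, the red cell spectrin *sptb* at 48.3 and 31.7 and *nfkb2* at 44.1 and 40.2. Of 7 regions in genes of the skeletal muscle list 1 was above the floor, in *jam2a* with 51.0 and 88.9. That list did not hold *mybpc2b*, a skeletal muscle gene that held the strongest in-gene region given above.

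Genes of the immediate early response, the clock and stress held 46 regions and, with 33 above the floor, were the best represented list. Their median was 0.08, or -0.06 after lowess centring, with 20 ratios above 0 and 13 below. *fkbp5*, a chaperone partner of the glucocorticoid receptor and one of its targets, had 134 in siblings and 245 in *hos*, in a region 4690 bp from *srsf3a*. *hif1al*, annotated as like the alpha subunit of hypoxia-inducible factor 1, had 60.6 and 101. *cited4a* was the lowest, followed by *hlfb*, a PAR bZIP factor of the clock (45.9 and 30.8). Mitochondrial and energy genes had 19 of 36 above the floor and a median of 0.14, or -0.06 after lowess centring. In that list *acacb*, an acetyl-CoA carboxylase, had 34.0 and 58.5, *ucp1*, an uncoupling protein, 58.3 and 42.7 and *pparg*, a receptor of fat cell genes, 49.0 and 34.9. The list did not hold *uqcrc2a* or *tpi1a*, energy genes whose regions were past 2-fold and among the 12 highest given above.

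Regions on either side of the distance limits are given as a description. Just beyond 1000 bp were *rnft1* at 1002 bp (269 in siblings and 249 in *hos*), *ctcf* at 1003 bp (49.5 and 73.1) and *aasdh* at 1007 bp (25.4 and 46.1), and just short of it were *prss60.3* (27.9 and 24.7), *zgc:100832* (38.5 and 32.7) and *lztfl1* (19.9 and 36.0). At the far limit *palm3* (53.0 and 48.2), *syt2a* (54.7 and 70.7) and *foxj3* (35.3 and 29.2) were inside, and *plekha5* (37.8 and 26.5), *b3gntl1* (28.8 and 19.1) and *tra2a* (34.5 and 31.4) outside.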

How the data were processed

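ATAC-seq of *hos* mutant and sibling hearts was deposited as 1 library per genotype, and groups were taken from the genotype labels. The submitters' processing notes name MACS2 2.1.0 and danRer11. How reads were aligned, deduplicated, shifted for the transposase and scaled is not given in the sources used here. Called intervals were merged by the authors into common regions, and the authors deposited an average and a peak signal and a called-interval mark per region and library, with gene names, distances and positions. Their log2 ratio of mutant over sibling and their shrunken log2 fold change were not used, nor were the files that hold no merged regions.

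The log2 ratio was log2((mutant signal + 1)/(sibling signal + 1)), and the fold limits are on this scale; a printed fold of a single region is the ratio of its deposited signals. Regions were compared with in-gene regions over 10 kb from a start, promoter regions (within 1000 bp) and regions outside genes, all without a CpG island. Tags were estimated as signal times region length divided by 224, which returned the deposited largest tag count of each region. Duplicated reads are not separate molecules, so fold intervals cover counting error only. In the table of genes, 16 names had become calendar dates, and 10 names in the lists were matched by another symbol.

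Among genes whose symbol is not a placeholder, the text names the 12 highest and 12 lowest ratios of strong regions, the 8 strongest regions, the 2 highest and 2 lowest of each of 20 gene lists, the 6 genes with the most regions, the 4 strongest regions called in 1 library only on either side, and regions at the distance limits; others were named after their values were seen. Placeholder symbols took 981 regions (23.1%). The regions, lists and rules were chosen with earlier results of these data known. The ratio, centring, counting and interval steps were tested on simulated binomial counts. These held 4-fold changes in strong in-gene regions only and no offset between the libraries. The simulation therefore does not show how well changes near 2-fold or close to the floor are called. Lowess curves had a span of 0.2 (statsmodels 0.14.6), binomial intervals came from scipy 1.17.1, and tables and figures were made with Python 3.11.15, pandas 2.3.3, numpy 2.4.6 and matplotlib 3.10.9. Alternatives covered scaling, pseudocounts of 0.1 and 5, peak signal, the floor, called intervals, distances, CpG islands and the fold limit. No sequence was printed and motifs were not searched, as no genome of this build was used here.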

Additional observations from a re-analysis of the deposited data

How the results depend on the processing

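The median log2 ratio of 0.19 became 0.038 with median centring, -0.015 with lowess centring, 0.10 with no floor, 0.27 with the floor at the 75th percentile and 0.26 for regions nearest to another gene's start. The 63 higher regions became 38 with median centring, 182 with no floor, 12 with the floor at the 75th percentile, 8 where both libraries held an interval, 37 within 5000 bp, 36 nearest to their own start, 27 nearest to another gene's start, 320 at 1.5-fold and 0 at 4-fold. The 46 lower regions became 64 with median centring and 57 with lowess centring, where the higher count was 46, so both scalings turned the balance, and 255 with no floor, 5 with the higher floor, 7 with an interval in both, 23 within 5000 bp, 4 nearest to another gene's start, 149 and 2 at the 1.5-fold and 4-fold limits, and 25 with a pseudocount of 5. The share called in both libraries was 80.8% above the floor and 55.1% within 5000 bp. The median peak ratio of 0.18 became 0.048 with median centring, -0.013 with lowess centring and 0.082 with no floor. The values by nearest start, without chromosome 4 and of the peak ratio were chosen after seeing the data. Without chromosome 4 the counts were 57 and 45.

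Of the 130 regions picked by the naming rules, 24 were past 2-fold. Of these, 21 were past it with median centring, 17 with lowess centring, 24 with a pseudocount of 0.1, 22 with one of 5 and 22 by peak signal, and none changed sign. Regions named only after their values were seen are not in these counts. With 1 library per genotype no replicate could be left out. No paired analysis was possible because each genotype has 1 library. Depth limits weak regions most: a median region held 46.0 and 47.9 tags.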

Other observations

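Other regions past 2-fold lay between the floor and the strong limit and were chosen here after their values were seen. The transporter paralogs *abcg2a* and *abcg2b* each held 1 region that was lower in the mutant, with average signals of 54.8 in siblings and 26.2 in *hos*, and 51.5 and 24.8. *tspan2a*, a tetraspanin gene, had 39.6 and 8, *actn4*, a non-muscle actinin, 40 and 14.0, *ppardb*, a nuclear receptor of lipid metabolism, 39.7 and 13.9, and *mlip*, a lamin-interacting protein of muscle, 40.6 and 15.9.

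In the other direction *dclre1c*, the nuclease Artemis, had 11.7 in siblings and 46.7 in *hos*, the highest log2 ratio of any in-gene region above the floor at 1.91. A second region of *dclre1c*, 207 bp away, had 38.9 and 42.6. The kinase genes *map4k4* and *map4k5* had 11.4 and 42.2, and 17.7 and 45.2, and *h2afy*, which encodes macroH2A, had 12.4 and 40.3. Another region of *map4k5* above the floor went the other way, with 50.9 and 33.0. A region in *hsp70.1* had 19.8 and 54.5, where near-identical *hsp70* copies make the assignment of reads uncertain. Among chromosomes with regions of this kind, the median log2 ratio ran from 0.06 on chromosome 11 to 0.29 on chromosome 24.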
